A study of Mus musculus with 8 samples.

Results

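The chemokines and their receptors were followed on 8 Affymetrix arrays of mesenchyme from the embryonic mouse lung, the loose tissue that wraps the airway tree as it branches. They were taken as every probe set whose platform gene symbol is Ccl, Cxcl, Ccr or Cxcr followed by a number, or is Cx3cl1, Xcl1, Xcr1 or Ackr3. This gave 75 of 45037 probe sets that are not controls, for 48 genes, 32 of ligands and 16 of receptors. All embryos were CD1 mice at day 11.5 to 12.5 of gestation, with no genetic change named, and the arrays form 4 groups of 2. Mesenchyme dissected from the branch tips and mesenchyme from the stalks behind those tips were taken for RNA at once, without culture. Further stalk mesenchyme was kept for 12 h on tissue culture plastic, in growth medium alone (control culture) or with 400 ng/ml of the signalling protein WNT1 (Wnt1 culture). The labels do not tell separate litters or cultures from repeat arrays of the same material, so the spread behind each p-value here may be technical only.

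Chemokines are small secreted proteins that guide moving cells along a gradient. They bind receptors that thread the membrane several times and signal through Gi proteins to the small GTPases that reshape the cell. The families CC, CXC, CX3C and XC are named after the spacing of conserved cysteines. Within the CXC family, ligands with a Glu-Leu-Arg (ELR) motif draw neutrophils through Cxcr2, while Cxcl9, Cxcl10 and Cxcl11 are induced by interferon and act on Cxcr3. Cxcl12 acts on Cxcr4, and Ackr3 is an atypical receptor that binds and removes it without Gi signalling. In embryos, the Cxcl12, Cxcr4 and Ackr3 axis guides germ cells, neurons and vessels, whereas most other members are best known from leukocytes and inflammation.

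Sequence just upstream of the start site is shown for 4 ligand genes because their windows hold the kappaB motif, the binding sequence of the NF-kappaB factors that switch on many chemokines. Cxcl1, Cxcl2 and Cxcl3 are neighbouring ELR ligands and Ccl9 is a ligand of the CC receptor Ccr1. The sequences are the 150 bases before the start of the gene, from RefSeq on assembly GRCm38.p6, read 5′ to 3′ on the strand of the gene. Capitals mark the bases covered by a kappaB match. They lie at chr5:90891095-90891244 (plus strand) for Cxcl1, chr5:90903749-90903898 (plus) for Cxcl2, chr5:90785951-90786100 (plus) for Cxcl3 and chr11:83578637-83578786 (minus) for Ccl9.
Cxcl1: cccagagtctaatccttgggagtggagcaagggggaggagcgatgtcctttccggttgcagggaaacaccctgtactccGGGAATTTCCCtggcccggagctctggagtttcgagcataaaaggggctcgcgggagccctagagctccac
Cxcl2: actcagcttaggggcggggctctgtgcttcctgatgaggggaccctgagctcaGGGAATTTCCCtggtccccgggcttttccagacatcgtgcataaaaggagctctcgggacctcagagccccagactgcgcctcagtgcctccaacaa
Cxcl3: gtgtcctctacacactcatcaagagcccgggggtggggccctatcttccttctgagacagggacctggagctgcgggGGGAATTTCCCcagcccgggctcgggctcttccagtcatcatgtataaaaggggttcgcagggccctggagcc
Ccl9: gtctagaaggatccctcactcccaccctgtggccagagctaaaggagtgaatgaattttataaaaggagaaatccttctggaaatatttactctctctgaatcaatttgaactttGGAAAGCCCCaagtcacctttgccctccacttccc
The 3 ELR genes hold the same run of capitals, read as a match on each strand that overlaps by all but 1 base, starting 71, 97 and 73 bases before the start site. Ccl9 has a match on the other strand, 35 bases before it. RefSeq windows were at hand for 35 of the 48 genes, each 300 bases long and reaching past the start site. Of these, 7 (20%) held a kappaB match on either strand (also Ccl20, Ccr3 and Cxcl10), against 4.35% of all 27025 windows of that length. The TATA letters TATAAA were in 31.4% of the member windows and 14.2% of all. The TCF/LEF letters CTTTGAT, at which Wnt signalling acts, were in 5.71% against 3.72%, namely Cxcl12 and Xcr1. The interferon response core (GAAA, any 2 bases, GAAA) was in 5.71% against 3.49% (Cxcl10 and Cxcl14), and the hypoxia core ACGTG in 11.4% against 19.7%. A match describes the letters only, and no factor was measured at these sites.

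The arrays were scaled to a common trimmed mean of 500, which did not fix the median. The median intensity was between 76.5 and 99.8 on the uncultured arrays, and 299, 209, 296 and 149 on control culture 1 and 2 and Wnt1 culture 1 and 2. The ratio of 3′ to 5′ signal of Actb, a sign of shortened RNA or cDNA, was 2.02 to 4.52 on the uncultured arrays and 23.3, 24.4, 21.2 and 6.81 in the same order of cultures. As detection calls were not used here, the highest array median, 298.6, stood in for the noise floor. Uncultured arrays correlated with each other at 0.972 to 0.978 (Pearson's r over genes, which do not vary independently), and the culture arrays with each other at 0.817 to 0.912. No genome coordinates go with the probe sets themselves.

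Few members gave clear signal in uncultured mesenchyme. Only 5 of the 75 probe sets were above 298.6 on all 4 uncultured arrays, and they belong to Ackr3, Cxcl12 and Cxcl13. Between 6.67% and 9.33% of member probe sets passed that level on an uncultured array, against 29.1% to 30.2% of all probe sets. On the culture arrays the share of members was 33.3%, 20%, 34.7% and 21.3%, against 49.9%, 38.2%, 49.6% and 30.2% of all. Member probe sets thus stood below the general share on each array.

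**Figure D1:**
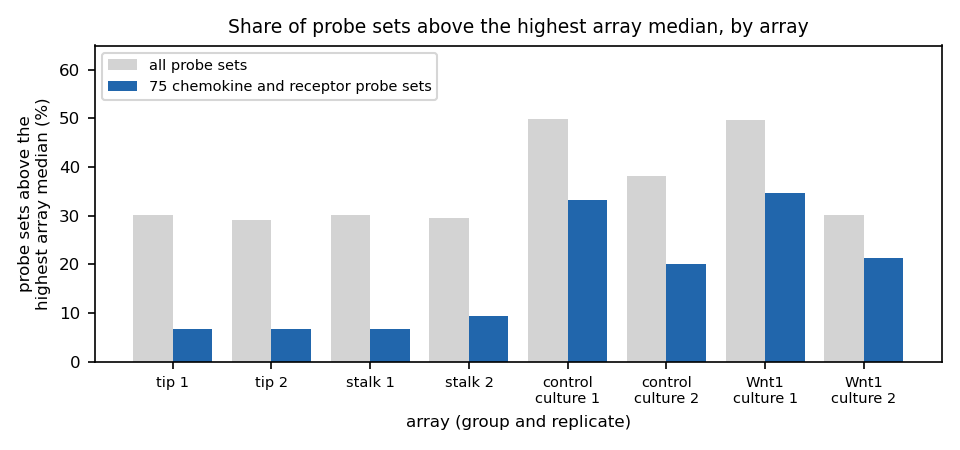
Share of probe sets above 298.6, the highest array median, on each of the 8 arrays (y axis, percent), for all probe sets (grey) and the 75 chemokine and receptor probe sets (blue). The blue bar is the lower of the pair on every array, from 6.67% on tip 1 to 34.7% on Wnt1 culture 1.

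For the tests, the probe set of highest mean stood for its gene, and a gene had to exceed 96.59 on at least 2 arrays, which left 38 members among 16112 genes. The 10 left out were Ccl1, Ccl5, Ccl20, Ccl24, Ccr3, Ccr4, Ccr7, Ccr8, Ccr10 and Cxcr5, at 0.989 to 75.4 on uncultured arrays and up to 256 in culture (Ccl5 on control culture 1). Of the 38, 26 had fewer than 2 uncultured arrays above the filter, against 30.4% of all tested genes. Apart from Ccl3, these genes had at least 2 culture arrays above the filter, so the filter itself favoured higher values in culture. Ccl3 passed on stalk replicate 2 and Wnt1 culture replicate 2. Fold changes are on the scale log2(intensity + 44.47), which understates changes of dim genes, and are given with their standard error.

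Ackr3, the scavenger of Cxcl12, was bright on all 8 arrays and differed little between groups. Its intensity was 1858 and 1561 in tip, 2028 and 1815 in stalk, 1408 and 3120 in control culture, and 1916 and 2551 in Wnt1 culture. The 4 groups overlapped. Its log2 difference was 0.13 ± 0.39 for control culture against stalk (limma, adjusted p = 0.82) and 0.20 ± 0.39 for Wnt1 culture against stalk (adjusted p = 0.72).

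Cxcl12, the ligand of Cxcr4 and Ackr3, gave an answer that depended on the probe set. The probe set used in the test (1448823_at) read 488 and 705 in tip, 553 and 754 in stalk, 1589 and 1561 in control culture, and 2336 and 5004 in Wnt1 culture. Every culture array was above every uncultured array. By this probe set Cxcl12 rose in control culture by 1.23 ± 0.40 (limma, adjusted p = 0.040) and in Wnt1 culture by 2.33 ± 0.40 (adjusted p = 0.0065) against stalk. A second bright probe set (1417574_at) read 1701 and 1743 in tip, 1839 and 1141 in stalk, 1044 and 1036 in control culture, and 1078 and 2713 in Wnt1 culture. There the control cultures were below both stalk arrays and the Wnt1 cultures lay on either side of them. Its differences from stalk were -0.46 ± 0.42 (adjusted p = 0.42, each probe set tested on its own) and 0.24 ± 0.42 (adjusted p = 0.71). A dim further probe set (1439084_at) stayed between 12.2 and 119. The second probe set had the higher mean, and so stood for the gene, when control culture and stalk were fitted alone or when either Wnt1 culture array was left out, and the value for control culture against stalk was then -0.46. For Wnt1 culture against stalk it was 0.88 without Wnt1 culture replicate 1 and -0.41 without Wnt1 culture replicate 2, each fit leaving 1 Wnt1 culture array. The mean over the 3 probe sets was not called in control or Wnt1 culture (0.51, limma, adjusted p = 0.24, and 1.03, adjusted p = 0.054). The Actb 3′ to 5′ ratio moved between the same groups, and its part in the disagreement was not tested.

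Cxcr4, the signalling receptor of Cxcl12, was dim. It read 86.9 and 87.2 in tip, 119 and 195 in stalk, 355 and 255 in control culture, and 187 and 207 in Wnt1 culture. Control culture lay above stalk, while Wnt1 culture overlapped it. The differences from stalk were 0.81 ± 0.49 (limma, adjusted p = 0.22) and 0.29 ± 0.49 (adjusted p = 0.68), and both turned negative after quantile normalization of the arrays (-0.15 and -0.46).

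Cxcl13, which draws B cells through Cxcr5, was the member that was bright in uncultured mesenchyme and lower in culture. Probe set 1417851_at read 2560 and 1874 in tip, 2030 and 1007 in stalk, 587 and 274 in control culture, and 378 and 473 in Wnt1 culture. All 4 uncultured arrays were above all 4 culture arrays. With each of 29333 probe sets tested on its own, it fell by 1.72 ± 0.44 in control culture (limma, adjusted p = 0.023) and by 1.66 ± 0.44 in Wnt1 culture (adjusted p = 0.035), where 7.38% and 4.97% of all probe sets were called lower. The other probe set (1448859_at), which stood for the gene in the main test, read 2911 and 2317 in tip, 2812 and 316 in stalk, 779 and 60.1 in control culture, and 564 and 114 in Wnt1 culture. Here the replicate numbered 2 was far below its partner in stalk and in both cultures, and the groups overlapped. Its differences were -1.79 ± 0.99 (adjusted p = 0.18) and -1.71 ± 0.99 (adjusted p = 0.22). Cxcr5, its receptor, was among the genes left out, at 35.3 to 75.4 uncultured and 41.1 to 112 in culture.

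**Figure D2:**
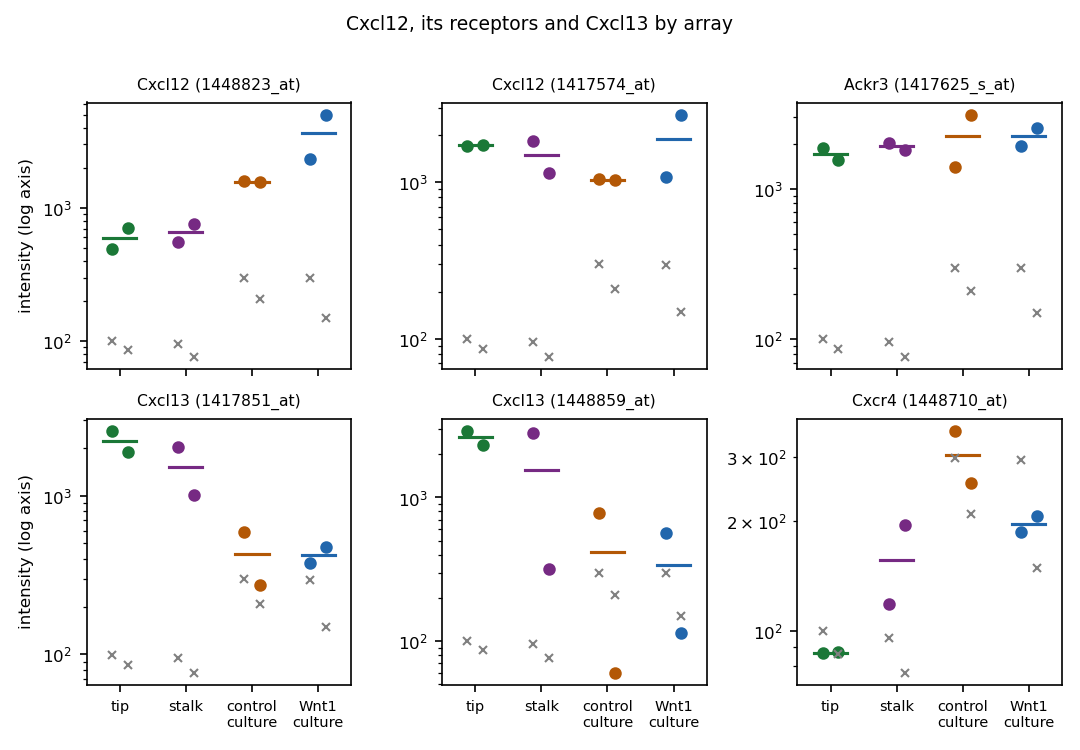
Intensity (log axis) on each array of both bright probe sets of Cxcl12, of Ackr3, of both probe sets of Cxcl13 and of Cxcr4, by group. Dots are arrays, bars are group means and grey crosses mark each array's median; the first Cxcl12 panel runs from 488 on tip 1 to 5004 on Wnt1 culture 2, while the second has the control cultures, at 1044 and 1036, below both stalk arrays.

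Tip and stalk mesenchyme were compared to ask what marks the region at the branch ends. No member passed the test, 0 of 38, against a background of 0% of 16112 genes, and the smallest adjusted p of a member was 1 (limma). At an unadjusted p under 0.05 there were 0 members and 91 genes. The tip arrays were both above the stalk arrays for 8 members and both below for 3, against 18.2% and 16.2% of all genes. The largest differences were those of Cxcl13 (1.38 ± 0.99) and Cxcl2 (-1.09 ± 0.71). Both rest on stalk replicate 2, where Cxcl2 read 355 against 44.3 in stalk replicate 1, and without that array the Cxcl13 value was -0.11. Ccl3 was likewise at 403 on stalk replicate 2 and between 48.9 and 86.9 on the other uncultured arrays.

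Stalk cultured for 12 h was then set against uncultured stalk. In control culture 14 of 38 members were higher and 0 lower, against a background of 17.1% higher and 9.26% lower. In Wnt1 culture 15 were higher and 0 lower, against 9.33% and 6.88%. Both comparisons share the stalk arrays. Both culture arrays were above both stalk arrays for 29 members in control culture and 29 in Wnt1 culture, against 46.1% and 41.5% of all genes, and both below for 0 and 0, against 25.4% and 25.5%. The median member difference was 1.33 in control and 1.35 in Wnt1 culture, where the median of all genes was 0.44 and 0.35. The gap was smaller among dim genes. Among genes whose stalk mean was under 298.6, 13 of 35 members were called higher in control culture and 14 of 35 in Wnt1 culture, against 30.2% and 16% of all such genes, and the median was 1.37 and 1.41 for the members against 1.34 and 1.16 for all such genes. Both culture arrays were above both stalk arrays for 28 of these 35 members in each comparison. That also held for 5915 and 5335 of the 8057 such genes. Both were below for 0 and 0 of the members, against 286 and 333 of such genes. Among the 12 members that had passed the filter on uncultured arrays alone, 6 were called higher in each comparison, against 9.59% and 5.85% of the 11210 such genes, namely Cxcl1, Cxcl12, Cxcl16, Ccl4, Cxcr3 and Ccr6. The other 6 were Cxcl13, Ackr3, Cxcr4, Ccl8, Ccl25 and Ccl28. Array medians were higher in culture too.

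The size of these counts depended on scaling and on single arrays. Quantile normalization moved the median of all genes to -0.01 in each culture comparison and left 4 of 37 members called in each, against backgrounds of 3.54% and 1.93%. They were Ccl6, Ccl9, Cxcl1 and Cxcl12 in control culture, and Ccl9, Ccr9, Cxcl1 and Cxcl12 in Wnt1 culture. Raising all values below 298.6 to that floor left 1 member in control culture (Cxcl1, adjusted p = 0.043) and 0 in Wnt1 culture (limma; 5 members and 2966 genes at an unadjusted p under 0.05), against backgrounds of 1.81% and 0.528%. Leaving out a single array changed the calls among members and among all genes. As it leaves 1 array in a group, medians are given instead. Calls of both fell without either stalk array or either tip array, the tip arrays entering through the shared spread. Without stalk replicate 1 the median member difference was 1.29 in control and 1.53 in Wnt1 culture, against 0.48 and 0.38 for all genes. Without stalk replicate 2 it was 1.44 and 1.32, against 0.42 and 0.34. Without control culture replicate 1 the control median was 1.22 against 0.36. Without Wnt1 culture replicate 1 the Wnt1 median was 1.4 against 0.21.

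**Figure D3:**
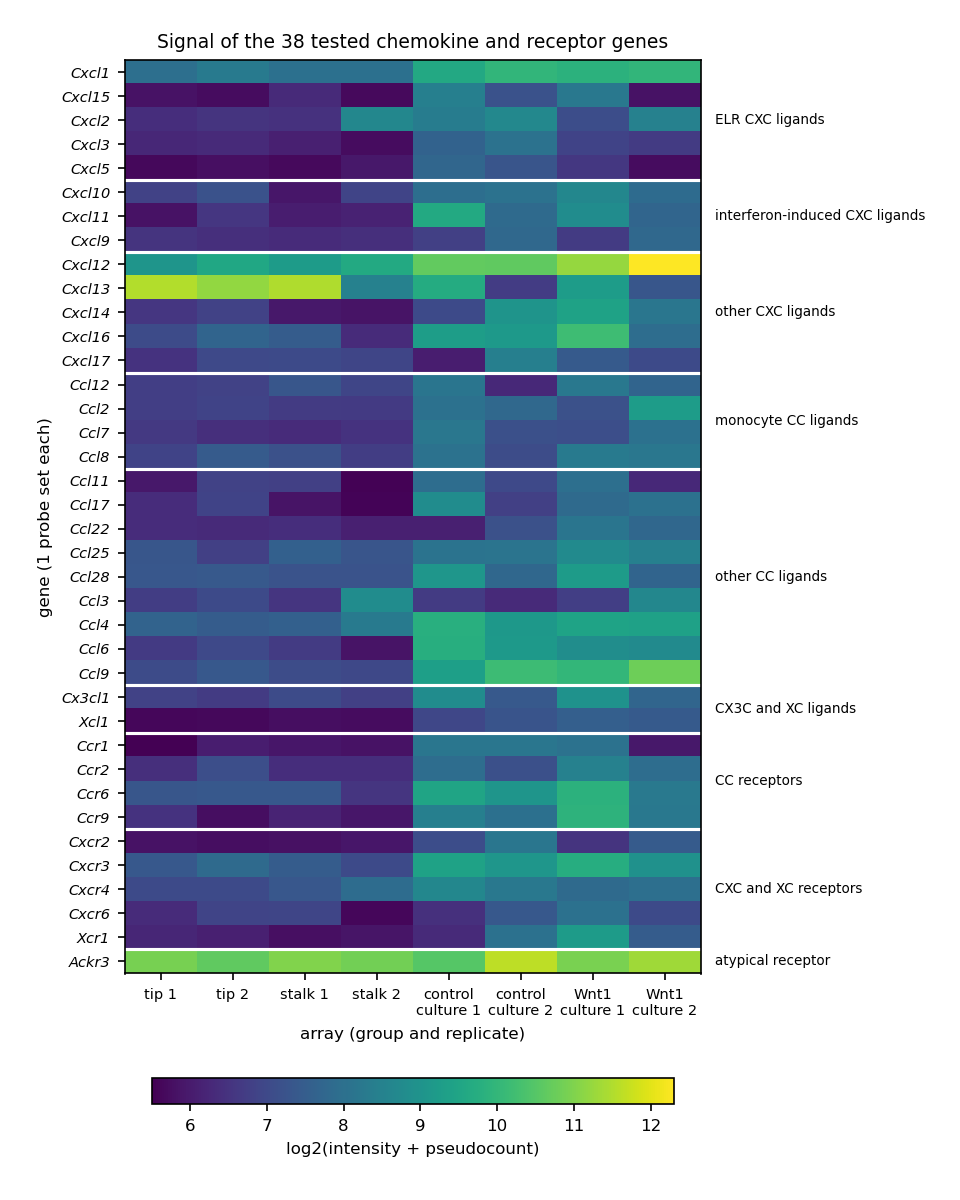
Signal of the 38 tested genes (rows, by role) on the 8 arrays (columns), as log2(intensity + 44.47) from dark (low) to yellow (high). Ackr3, Cxcl12 and Cxcl13 stand out on the uncultured arrays, and most other rows are darker there than in the cultures.

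Of the 5 ELR ligands under the naming rule, which recruit neutrophils, 2 rose in control culture and 1 in Wnt1 culture, where 17.1% and 9.33% of all genes were called higher (30.2% and 16% of genes dim in stalk). Counts this small cannot be set apart from those shares. Ligands outside the rule, such as Ppbp, which fell in both cultures, are given further below. Cxcl1 read 211 and 272 in tip, 214 and 214 in stalk, 740 and 970 in control culture, and 894 and 962 in Wnt1 culture. The replicates lay close together and no culture array came near an uncultured one. It rose by 1.79 ± 0.38 in control culture and by 1.91 ± 0.38 in Wnt1 culture (limma, adjusted p = 0.012 in both). Its other probe sets went the same way, 1457644_s_at from 137 and 105 in stalk to between 463 and 1141 in culture, and 1419209_at from 28.9 and 50.2 to between 208 and 335. Cxcl3, at 23.9 and 8.41 in stalk and 32.5 and 35.5 in tip, read 157 and 224 in control culture and 71.6 and 57.9 in Wnt1 culture. It was called in control culture (1.95 ± 0.58, limma, adjusted p = 0.030) and not in Wnt1 culture (0.86 ± 0.58, adjusted p = 0.29), and all its arrays were under the noise floor. The difference between the cultures was -1.09 ± 0.58 and was not called (adjusted p = 0.65). Cxcl2, which shares the kappaB run with both, read 39.8 and 48.1 in tip, 44.3 and 355 in stalk, 281 and 363 in control culture, and 92.3 and 312 in Wnt1 culture. Stalk replicate 2 was as high as the cultures, so the groups overlapped and no difference was called. Cxcl5 and the lung-enriched Cxcl15 had no array above 304.

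Of the interferon-induced ligands of Cxcr3, Cxcl11 rose in both cultures and Cxcl10 in Wnt1 culture. Cxcl11 read 12.5 and 51.8 in tip, 21.1 and 26.5 in stalk, 748 and 186 in control culture, and 402 and 165 in Wnt1 culture. Every culture array was above every uncultured one, with replicate 1 the higher in each culture. The change was 2.65 ± 0.68 (limma, adjusted p = 0.019) and 2.16 ± 0.68 (adjusted p = 0.048). Its second probe set was not called alone (1.53 ± 0.61, adjusted p = 0.085, and 0.67 ± 0.61, adjusted p = 0.45). Cxcl10 read 69.4 and 103 in tip, 15.8 and 74.0 in stalk, 203 and 222 in control culture, and 354 and 189 in Wnt1 culture. It reached 1.85 ± 0.57 in Wnt1 culture (adjusted p = 0.045) and 1.60 ± 0.57 in control culture (adjusted p = 0.053), and the difference between the cultures was 0.25 ± 0.57 (adjusted p = 0.96). Cxcl9 stayed at or under 177 on all arrays. Cxcr3, the receptor of these ligands on T and natural killer cells, read 122 and 188 in tip, 134 and 85.9 in stalk, 640 and 492 in control culture, and 809 and 446 in Wnt1 culture. No array of a culture overlapped the uncultured range, and it rose by 1.99 ± 0.47 (adjusted p = 0.015) and 2.08 ± 0.47 (adjusted p = 0.017).

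Among the remaining CXC ligands, Cxcl16 and Cxcl14 rose in both cultures. Cxcl16, a membrane-bound ligand of Cxcr6, read 89.6 and 163 in tip, 135 and 35.8 in stalk, 577 and 534 in control culture, and 1126 and 198 in Wnt1 culture. The Wnt1 replicates were far apart, the lower being close to tip replicate 2. The change was 2.32 ± 0.68 (limma, adjusted p = 0.029) and 2.15 ± 0.68 (adjusted p = 0.049). A dimmer probe set was not called (1.37 ± 0.64, adjusted p = 0.13, and 1.84 ± 0.64, adjusted p = 0.076). Cxcl14, a ligand found in many epithelia, read 51.2 and 71.1 in tip, 16.5 and 13.7 in stalk, 86.2 and 473 in control culture, and 640 and 245 in Wnt1 culture. Control replicate 1 was close to the tip arrays, while the other 3 culture arrays were well above. It rose by 2.13 ± 0.69 (adjusted p = 0.041) and 2.90 ± 0.69 (adjusted p = 0.021), and its second probe set by 2.30 ± 0.73 (adjusted p = 0.042) and 2.73 ± 0.73 (adjusted p = 0.036). Cxcl17 and Cxcr6 were dim, with highest arrays at 305 and 218.

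The CC ligands Ccl9 and Ccl6, macrophage products that act through Ccr1, had the largest changes of any member in control culture. Ccl9 read 87.3 and 123 in tip, 92.0 and 81.7 in stalk, 603 and 1098 in control culture, and 980 and 1738 in Wnt1 culture. It went from near the array median to well above it, with no overlap. It rose by 2.71 ± 0.46 (limma, adjusted p = 0.0057) and 3.36 ± 0.46 (adjusted p = 0.0024), and within each array from the 49.4 and 51.3 percentile of all probe sets in stalk to between the 76.6 and the 92.0 percentile in culture. A dimmer second probe set rose in Wnt1 culture (2.46 ± 0.60, adjusted p = 0.028) but was not called in control culture (0.82 ± 0.60, adjusted p = 0.32). Ccl6 read 56.4 and 83.8 in tip, 57.6 and 13.1 in stalk, 826 and 525 in control culture, and 411 and 391 in Wnt1 culture. Both control cultures were above both Wnt1 cultures, and all 4 above the uncultured arrays. It rose by 3.20 ± 0.51 (adjusted p = 0.0050) and 2.54 ± 0.51 (adjusted p = 0.012), while a second, dim probe set was not called (1.40 ± 0.76, adjusted p = 0.18, and 1.19 ± 0.76, adjusted p = 0.28).

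Ccl4, a CC ligand made by activated macrophages and T cells, rose as well. It read 160 and 135 in tip, 148 and 266 in stalk, 840 and 513 in control culture, and 653 and 631 in Wnt1 culture, with no overlap. The change was 1.52 ± 0.44 (limma, adjusted p = 0.029) and 1.49 ± 0.44 (adjusted p = 0.041). Its neighbour and relative Ccl3 did not follow it, reading 61.4, 86.9, 48.9 and 403 uncultured, 59.1 and 35.0 in control culture, and 64.6 and 359 in Wnt1 culture. Replicate 2 of stalk and of Wnt1 culture stood apart there. Ccl17, a ligand of Ccr4, read 37.6 and 72.1 in tip, 13.8 and 2.78 in stalk, 404 and 66.3 in control culture, and 185 and 217 in Wnt1 culture. The second control array lay within the tip range, though the gene was called against stalk (2.09 ± 0.68, adjusted p = 0.041, and 2.22 ± 0.68, adjusted p = 0.045).

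The 4 genes grouped as monocyte CC ligands, Ccl2, Ccl7, Ccl8 and Ccl12, were not called in any comparison. Ccl2 read 65.1 and 72.7 in tip, 58.9 and 56.9 in stalk, 220 and 180 in control culture, and 101 and 574 in Wnt1 culture. All culture arrays were above the uncultured ones, but the Wnt1 replicates differed widely, and the differences were 1.25 ± 0.66 (limma, adjusted p = 0.16) and 1.55 ± 0.66 (adjusted p = 0.11). Whether Ccl2 was called changed when a single Wnt1 culture array was left out, which leaves 1 array in that group. Calls among all genes moved in the same fits. Without Wnt1 culture replicate 1, the Ccl2 difference of Wnt1 culture from stalk was 2.60. Ccl7 read 53.9 and 41.2 in tip, 35.9 and 45.7 in stalk, 249 and 99.5 in control culture, and 96.0 and 220 in Wnt1 culture. Here too the cultures lay apart from the rest, without a call (1.27 ± 0.60, adjusted p = 0.12, and 1.18 ± 0.60, adjusted p = 0.17). Ccl8 and Ccl12 had no array above 272.

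Ccl25 and Ccl28, mucosal ligands of Ccr9 and Ccr10, and Cx3cl1, a membrane-bound ligand of Cx3cr1, were not called. Ccl25 read 114 and 66.4 in tip, 147 and 113 in stalk, 226 and 231 in control culture, and 384 and 308 in Wnt1 culture. The groups of cultures did not overlap, yet neither difference from stalk passed (0.65 ± 0.49 and 1.16 ± 0.49, limma, adjusted p = 0.31 and 0.11). Ccl28 read 118, 123, 105 and 106 uncultured, 498 and 174 in control culture, and 558 and 162 in Wnt1 culture. Cx3cl1 read 69.6, 58.7, 89.1 and 66.0 uncultured, 402 and 125 in control culture, and 454 and 165 in Wnt1 culture. In both genes the replicate numbered 1 of each culture, on the arrays of highest median, was the high one. Of the other tested ligands, Ccl11, Ccl22 and Xcl1 had no array above 237.

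Of the 10 tested receptors, 4 rose in control culture and 5 in Wnt1 culture, beside 17.1% and 9.33% of all genes and 30.2% and 16% of genes with a stalk mean under 298.6, as all of these receptors but Ackr3 had. Besides Cxcr3 they were mostly CC receptors. Ccr6, a receptor for Ccl20 on lymphocytes and dendritic cells, read 115 and 121 in tip, 122 and 48.7 in stalk, 663 and 486 in control culture, and 888 and 262 in Wnt1 culture. No culture array overlapped the uncultured ones, and it rose by 2.30 ± 0.57 (limma, adjusted p = 0.018) and 2.10 ± 0.57 (adjusted p = 0.031). Ccr9, the receptor for Ccl25, read 46.3 and 9.39 in tip, 28.2 and 16.0 in stalk, 300 and 212 in control culture, and 913 and 256 in Wnt1 culture. It rose by 2.16 ± 0.63 (adjusted p = 0.029) and 3.02 ± 0.63 (adjusted p = 0.014), but 4 further Ccr9 probe sets had no Wnt1 culture array above 310. Of those 4, the 2 that passed the filter were not called alone, with adjusted p between 0.052 and 0.16.

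Ccr1 and Ccr2 mark monocytes and macrophages. Ccr1 read 0.803 and 21.5 in tip, 15.3 and 12.3 in stalk, 242 and 245 in control culture, and 225 and 16.8 in Wnt1 culture. Wnt1 culture replicate 2 was as low as the uncultured arrays. It was called in control culture (2.30 ± 0.71, limma, adjusted p = 0.035) but not in Wnt1 culture (1.14 ± 0.71, adjusted p = 0.26), and its other probe set was not called (-0.02 ± 0.76 in control culture, adjusted p = 0.99). After quantile normalization that other probe set had the higher mean, with a value of -1.12 in control culture. Ccr2 read 41.8 and 96.2 in tip, 39.5 and 39.5 in stalk, 201 and 98.9 in control culture, and 318 and 199 in Wnt1 culture. It rose in Wnt1 culture (1.82 ± 0.57, adjusted p = 0.048) and was not called in control culture (1.16 ± 0.57, adjusted p = 0.14). With every probe set tested on its own the calls changed places, 1421188_at passing in control culture (1.83 ± 0.59, adjusted p = 0.045) and 1460067_at missing in Wnt1 culture (adjusted p = 0.061). Xcr1, the Xcl1 receptor of cross-presenting dendritic cells, read 31.3 and 23.8 in tip, 10.2 and 14.4 in stalk, 35.0 and 218 in control culture, and 558 and 133 in Wnt1 culture. It was called in Wnt1 culture (2.53 ± 0.74, adjusted p = 0.039) and not in control culture (1.35 ± 0.74, adjusted p = 0.18), where replicate 1 was near the tip arrays. For Ccr1, Ccr2 and Xcr1 the difference between the cultures was itself not called (adjusted p = 0.72, 0.84 and 0.73). Cxcr2 was at or under 15.9 uncultured and between 47.4 and 242 in culture.

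**Figure D4:**
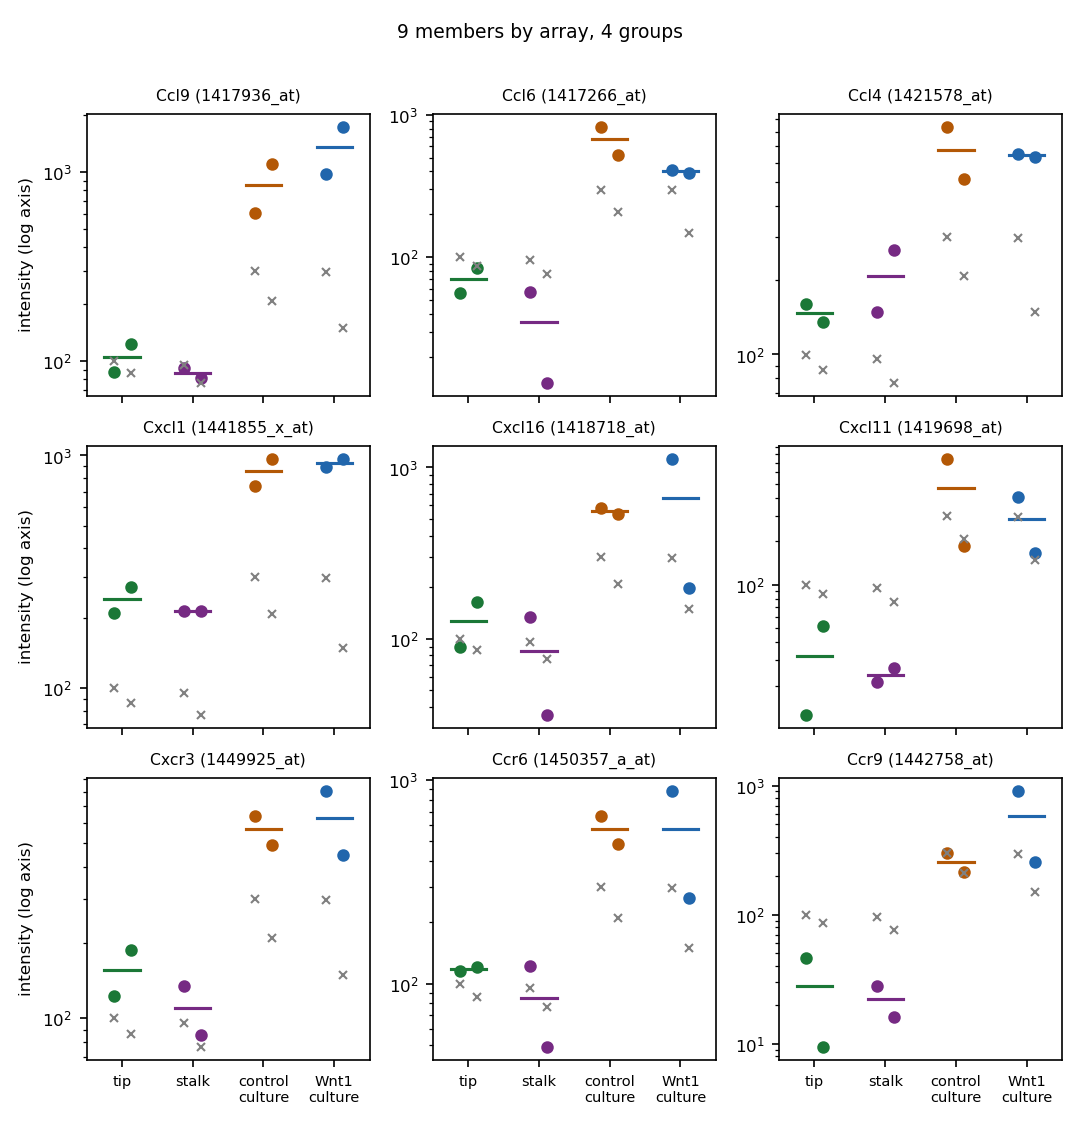
Intensity (log axis) on each array of 9 genes named in the culture comparisons, by group. Dots are arrays, bars are group means and grey crosses mark each array's median; in Ccl9, Ccl6, Ccl4 and Cxcl1 every culture dot is above every uncultured dot, with Ccl9 running from 81.7 in stalk to 1738 in Wnt1 culture.

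Wnt1 culture was compared with control culture to ask what the added WNT1 changed. No member was called, 0 of 38, against a background of 0%. At an unadjusted p under 0.05 there was 1 member among 1297 genes, Cxcl12, at 1.10 ± 0.40 (limma, unadjusted p = 0.017, adjusted p = 0.55). Its Wnt1 cultures, at 2336 and 5004, were above the control cultures, at 1589 and 1561, while the second bright probe set had the lower Wnt1 array, 1078, close to the control arrays, 1044 and 1036. Members above 0 numbered 22 of 38, with a median of 0.09 against -0.08 for all genes. The Wnt1 arrays were both above the control arrays for 6 members and both below for 5, against 10.1% and 15.9% of all genes. Next in size of p came Ccl22 (1.31 ± 0.61, from 24.1 and 102 to 237 and 175) and Cxcl5 (-1.36 ± 0.63, from 171 and 113 to 52.4 and 8.47), both with adjusted p = 0.62. Of the 5 ELR ligands, 4 had values below 0 and 1 above, with a median of -0.80 over the 5, and none was called. Of all genes 44.5% were above 0, and 38.2% of those with a stalk mean under 298.6. So small a count cannot be set apart from these shares. The interval these errors leave is wide, so a p above the threshold does not show that the cultures were alike.

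**Figure D5:**
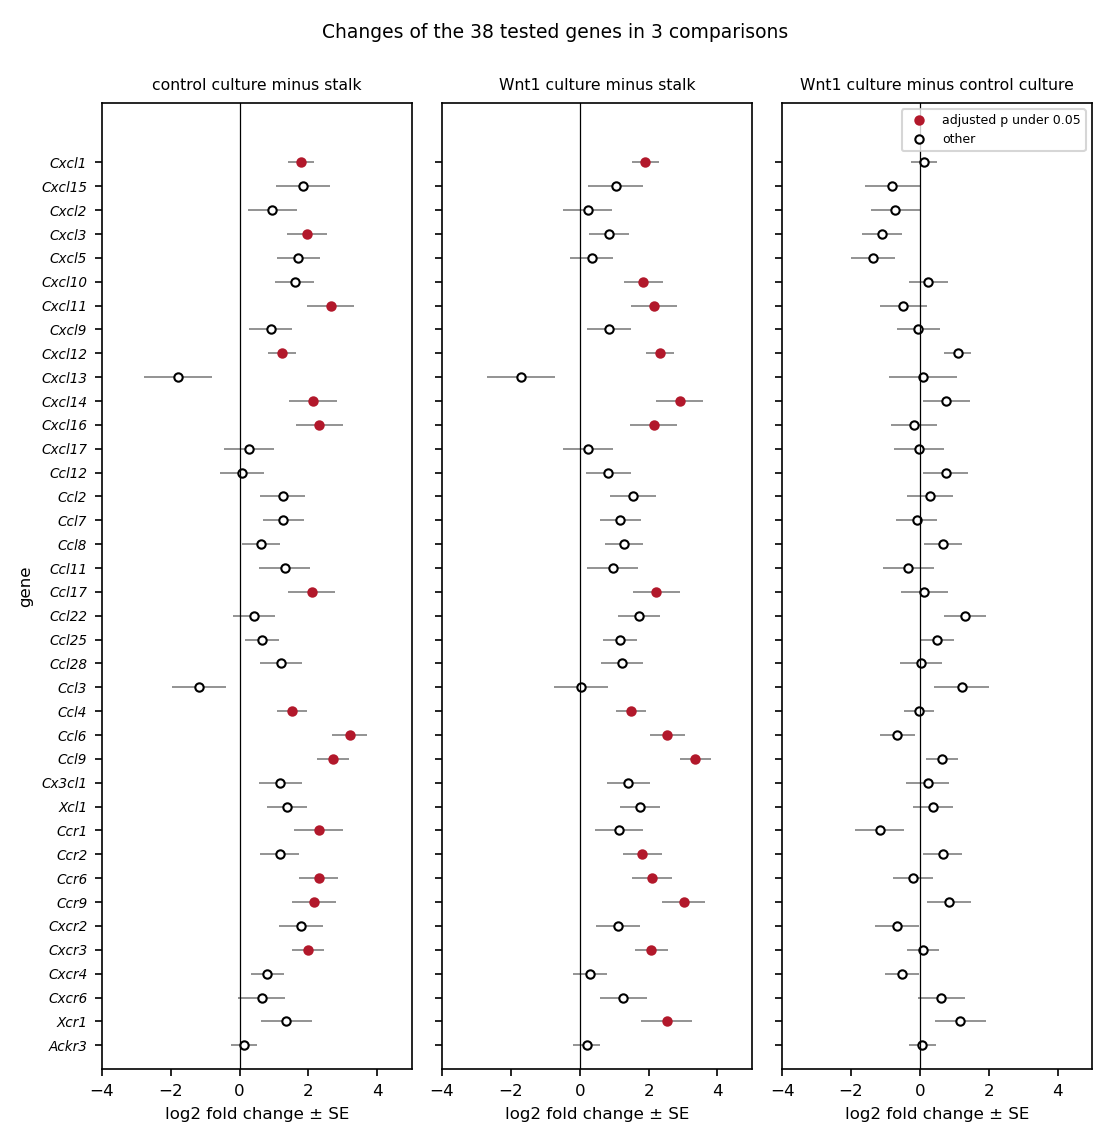
Log2 fold change of the 38 tested genes with its standard error in control culture against stalk, Wnt1 culture against stalk, and Wnt1 against control culture. Filled red points are past the threshold (14, 15 and 0 genes); most points of the first panels lie right of 0 and those of the last lie around it.

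Of 8 tested ligands and receptors outside the naming rule, 0 rose and 1 fell in each culture comparison, and 6 and 5 had values above 0. Ackr2, an atypical receptor that takes up CC ligands, was at 1.74 ± 0.66 in control culture without passing (limma, adjusted p = 0.067), and the gene that fell was Ppbp. The platelet chemokine Ppbp read 815 and 540 in tip, 772 and 1228 in stalk, 87.0 and 151 in control culture, and 82.8 and 106 in Wnt1 culture. It fell by 2.67 ± 0.46 (limma, adjusted p = 0.0058) and fell by 2.88 ± 0.46 (adjusted p = 0.0050). The related Pf4 stayed between 2456 and 6870 on all arrays and was not called.

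Other genes of chemokine signalling and induction were counted from further lists, to be read against the 17.1% of all genes called higher and 9.26% called lower in control culture, and 9.33% and 6.88% in Wnt1 culture. Of 28 genes that carry receptor signals, 7 rose and 3 fell in control culture, with Plcb2 (2.67 ± 0.59) and Vav1 (1.94 ± 0.51) up and the Gi subunits Gnai3 (-2.12 ± 0.33) and Gnai1 (-1.90 ± 0.37) down. In Wnt1 culture 2 rose and 4 fell, led by Gnai1 (-2.61 ± 0.37) and Dock2 (2.27 ± 0.61). Of 23 genes of the NF-kappaB and cytokine list, 6 rose in control culture, among them Lif (2.19 ± 0.52), Tlr4 (2.20 ± 0.59), Nfkb2 (1.96 ± 0.53) and Csf1 (1.57 ± 0.43), and 3 in Wnt1 culture, Lif, Ier3 and Csf1. Of 17 interferon response genes, 5 rose and 1 fell in control culture, led by Oas1a (3.80 ± 0.57) and Irf7 (2.51 ± 0.60), and those were the 2 that rose in Wnt1 culture (3.13 ± 0.57 and 2.06 ± 0.60). Of 11 genes of the hypoxia list, Adm (2.70 ± 0.50 and 2.56 ± 0.50) and Car9 (1.90 ± 0.50 and 1.70 ± 0.50) rose in both cultures. Of 12 Wnt target genes, 1 rose (Lgr5) and 5 fell in control culture, while 1 rose and 3 fell in Wnt1 culture against stalk. In Wnt1 against control culture 0 genes of these lists passed. There, 3 of the 12 Wnt target genes had values above 0, against 44.5% of all genes. Their median was -0.42, against -0.08 for all genes.

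Markers of blood and other cells moved between the same groups. The summed intensity of 14 macrophage markers was 1668 on tip replicate 1, 4943 to 5611 on the other uncultured arrays and 14270 to 27460 in culture. Between 1 and 5 of them were above the noise floor uncultured and 9 to 13 in culture. In control culture 7 rose and in Wnt1 culture 6, for example C1qb (3.0 ± 0.35 and 2.47 ± 0.35), where 17.1% and 9.33% of all genes were called higher. Of the 14, 0 were called lower, and 13 had values above 0 in control culture and 12 in Wnt1 culture. Mrc1 went the other way in both, from 388 and 905 in stalk to between 188 and 214 in culture. Ptprc did so in Wnt1 culture only, at 149 and 331 there against 232 and 268 in stalk. The 8 granulocyte markers summed to 331 to 687 uncultured and 1308 to 2734 in culture, and the 7 lymphoid markers to 217 to 444 and 814 to 1404. Array medians rose too, from 76.5 to 99.8 uncultured to 149 to 299 in culture, so sums of dim genes may follow the general signal. Of 7 granulocyte markers tested, 2 rose in control and 4 in Wnt1 culture, and of 5 lymphoid markers 1 and 1. In both lists 0 genes were above the noise floor on any uncultured array, with the T cell gene Cd3g at 3.1 to 8.5 there. Endothelial markers (10) went from 6417 to 12570 down to 1510 to 3554, and epithelial markers (10) from 1539 to 2712 up to 4474 to 12540. The highest epithelial sum, on Wnt1 culture replicate 2, came mostly from Krt18 (6905) and Krt8 (4384), and 3 of the 10 were above the noise floor there. Of the 8 epithelial markers tested, 2 rose in control culture and 1 in Wnt1 culture, and 0 fell. Of 6 erythroid markers, 1 rose and 4 fell in control culture, and 0 rose and 2 fell in Wnt1 culture. Of 6 mesothelial markers, 1 rose and 0 fell in each culture. Of the 10 mesenchymal markers, 8 or 9 were above the noise floor on every array. In control culture 2 rose and 6 fell, and in Wnt1 culture 0 rose and 5 fell, Wnt2 and Tbx4 being lower in both, the list summing to 33580 to 43010 uncultured and 18480 to 38720 in culture. In such bulk samples more cells of a type and more RNA per cell cannot be told apart. The part of these cell types in the changes of Ccl6, Ccl9, Ccl4, Ccr1 and the other members was not tested.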

How the data were processed

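RNA was amplified with a two-cycle cDNA kit, per the labels' protocols. The values the authors deposited are linear intensity, 1 a probe set and array. The submitters' processing notes name MAS5 and Affymetrix Expression Console, without versions or settings. The number of arrays, 2 a group, limits the precision. Probe sets with 1 gene symbol were used (34945 of 45101). Members and lists were chosen with earlier results of these data known. The main test was limma 3.58.1 (R 4.3.3; lmFit, eBayes with trend) over all 8 arrays on log2(intensity + 44.47), the 25th percentile of all values, after a filter at 96.59, the 40th. It was two-sided for 4 comparisons, Benjamini-Hochberg adjusted over 16112 genes, threshold 0.05. An exact permutation test of 2 against 2 cannot go below 0.33 and was not run. Values by array are given for called members, 7 fixed genes and members with a group mean above 298.6; each further list names up to 4 called genes. All 48 symbols matched RefSeq GRCm38.p6. The code was tested on simulated data. Alternatives changed the pseudocount, filter, floor, normalization, variance model, probe sets, arrays and replicate block. Figures used matplotlib 3.10.9.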

Additional observations from a re-analysis of the deposited data

How the results depend on the processing

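No member was called in tip against stalk or in Wnt1 against control culture under any alternative run. Other genes were, in Wnt1 against control culture, for example 70 higher and 2 lower without control culture replicate 2, 25 lower without Wnt1 culture replicate 2, and 9 higher and 47 lower with the floor, which also gave 1 lower in tip against stalk. Shares of all genes called higher stand in brackets here. For control culture against stalk, the 14 calls (17.1%) became 4 with quantile normalization (3.54%) and 1 with the signal floor (1.81%). For Wnt1 culture against stalk, the 15 calls (9.33%) became 9 with the pseudocount at the 50th percentile (6.19%). They became 4 with quantile normalization (1.93%) and 0 with the floor (0.528%). The calls of members and of all genes also moved when single arrays were left out, each time leaving 1 array in a group. The floor ties dim values; other causes were not tested. Among single genes, the calls of Ccl9 held in 18 and 20 of 21 alternatives, those of Cxcl1 in 19 and 18 and those of Ccl6 in 19 and 17, while that of Cxcl11 in Wnt1 culture held in 7 of 21.

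Signs turned for some values. In tip against stalk, Cxcl1 was -0.51 as the mean of its probe sets and -0.61 without the _x_at and _s_at probe sets (-0.02 to 0.29 with arrays left out), Cxcl12 was 0.24 with 2 groups fitted (-0.38 to 0.24), and Cxcl13 ran from -0.11 to 1.54. In Wnt1 against control culture, Ccl7 was 0.25 with quantile normalization (-0.61 to 0.42), Cxcl1 was -0.16 without the _x_at and _s_at probe sets (-0.06 to 0.31), and Cxcl13 was -0.03 with the 50th percentile and -0.22 with the floor (-1.41 to 1.57). There, leaving out arrays gave -0.49 to 0.64 for Ackr3, -0.74 to 1.34 for Ccl2 and -0.22 to 1.77 for Cxcl14. In control culture against stalk, quantile normalization gave -1.12 for Ccr1 and -0.15 for Cxcr4 (-0.46 for Cxcr4 in Wnt1 culture), Cxcl12 was -0.46 with 2 groups fitted (-0.46 to 1.44, and -0.41 to 2.54 in Wnt1 culture), and Ackr3 ran from -0.43 to 0.69. For Cxcl12 the sign turned where another probe set stood for the gene. The same holds for Cxcl1 without the _x_at and _s_at probe sets, where 1419209_at stood for it (-0.61 and -0.16 on its own). For Ccr1 both the probe set and the normalization changed, and the other probe set was at -0.02 without quantile normalization. Causes were not tested.

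With the replicate number as a block, 18 members were called in control culture (17 higher, 1 lower; 21.8% of all genes higher) and 17 in Wnt1 culture (16 higher, 1 lower; 14.9%), the lower call being Cxcl13 in each. Deviations of same-numbered arrays correlated at -0.083 to 0.054 between tip and the other groups, and at 0.14, 0.15 and 0.30 among stalk and the cultures. The labels do not say what a number marks, and with 2 numbers the data do not settle whether they pair the arrays. With 2 arrays a group and most members near or under the median signal, a lack of calls does not bound the size of a difference, large ones included, and a low intensity does not show that a gene was silent.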
